A study of Mus musculus with 13 samples.

Results

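P2ry12, P2ry13, P2ry6, Gpr34, P2rx7 and P2rx4 are surface receptors through which microglia read extracellular nucleotides and lysophospholipids. They were chosen by name, as 6 of the 17280 genes used here, and all 6 were found in the tables of single hypothalamic microglia. The cells came from C57BL/6J mice on control chow or on HFD with 60% fat, given for 1 day, 3 days, 1 week, 4 weeks, 9 weeks or 16 weeks. Single CD45lo CD11b+ cells were sorted into 13 plates of 192 wells and sequenced by CEL-Seq2, which counts transcripts at their 3′ ends by molecular identifiers (UMIs). The age of these animals is not given in the sources used here. The labels list several dissected brain regions and an HFD of 3 days, whereas the methods describe the sorted cells as hypothalamic and the table of wells gives the length of HFD.

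Cells with at least 1500 transcripts were analysed. Of 2496 wells, 1617 passed, of which 722 were from control mice, 161 from 1-day HFD, 121 from 3d HFD, 172 from 1-week HFD, 128 from 4-week HFD, 82 from 9-week HFD and 231 from 16-week HFD. The median cell held 2839 transcripts, and plate medians ran from 2187 to 4675. Cells were summed by replicate identifier and plate, which gave 68 sums from 44 replicates, 19 of them control. Plates whose cell names share a cohort were linked. An identifier of 1 diet counted once over linked plates and again on plates not linked, as control M1 on plates 10 to 12 and on plate 7. Nothing in the sources says that an identifier is 1 mouse, so p-values measure the spread between these sums. All 8 microglial markers examined were detected, with Cx3cr1 at 7072 CPM (transcripts scaled to the total of the sum) in pooled control cells, whereas the border macrophage gene Mrc1 stood at 16.8 and the monocyte gene Ccr2 at 8.63. The neutrophil gene S100a9 stood at 0 CPM in pooled control cells. Over cells of all diets, each thinned to 1500 UMIs, 0.680% held S100a9, with 224 UMIs, so these were HFD cells. Ccr2 was seen in 1.92% of the same thinned cells, with 97 UMIs. All plates used the same 192 well barcodes.

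P2ry12 and P2ry13 are Gi-coupled receptors for ADP, and P2ry12 is known for steering microglial processes toward sites of injury. P2ry6 is a receptor for UDP that is linked to phagocytosis, and Gpr34 is a Gi-coupled receptor for lysophosphatidylserine. P2rx7 and P2rx4 are cation channels opened by ATP, and P2rx7 is known as a trigger of the NLRP3 inflammasome. P2ry12 and Gpr34 are widely used to mark homeostatic microglia.

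On GRCm38, P2ry12 (ENSMUSG00000036353) lies on the minus strand at chr3:59216272-59262871 and P2ry13 (ENSMUSG00000036362) at chr3:59207892-59210882, with 5389 bp between them. Both lie inside Med12l, which runs on the plus strand from 59005825 to 59318682. Gpr34 (ENSMUSG00000040229) lies at chrX:13632089-13640858 on the plus strand, inside an intron of Cask on the minus strand. P2ry6 (ENSMUSG00000048779) is at chr7:100937630-100974649. P2rx7 (ENSMUSG00000029468) is at chr5:122643911-122691432, and P2rx4 (ENSMUSG00000029470) follows it after 16111 bp at chr5:122707544-122729738. Of the exons annotated for Med12l, 21 overlap the span of P2ry12 and 0 that of P2ry13, and 0 exons of Cask overlap Gpr34. The strand setting of the counting is not given in the sources used here. Reads where P2ry12 and Med12l overlap thus cannot be told apart. For P2ry13 and Gpr34 this holds only for reads from introns of Med12l or Cask. P2ry6 overlaps Gm44545 and P2rx7 overlaps Mir8115. Pooled control cells held 91.3 CPM of Med12l and 140 of Cask.

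The promoters of the neighbours P2ry12 and P2ry13 are shown because these genes varied together between cells. Each is the 250 bases before the RefSeq start on the minus strand of GRCm38.p6, at chr3:59262986-59263235 and chr3:59210883-59211132, and capitals mark AGGAAG, a motif picked after the sequences had been read.
P2ry12: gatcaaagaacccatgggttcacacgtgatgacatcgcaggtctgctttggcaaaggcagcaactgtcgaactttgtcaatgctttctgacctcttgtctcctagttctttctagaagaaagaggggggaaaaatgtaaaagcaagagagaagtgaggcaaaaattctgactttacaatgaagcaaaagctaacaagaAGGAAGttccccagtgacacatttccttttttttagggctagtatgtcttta
P2ry13: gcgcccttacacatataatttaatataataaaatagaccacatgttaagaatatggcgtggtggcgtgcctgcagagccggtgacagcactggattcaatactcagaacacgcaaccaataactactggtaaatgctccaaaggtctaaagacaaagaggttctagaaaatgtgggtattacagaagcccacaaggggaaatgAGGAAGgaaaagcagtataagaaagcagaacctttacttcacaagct

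The motif began 52 bases before the start of P2ry12 and 47 before that of P2ry13. On either strand it occurred in 29.5% of the 32851 promoters of this length, so its presence in both is a common match. RefSeq sequences were matched for 4 of the 6 receptors, the others being P2ry6 and Gpr34.

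Levels are given as CPM of a replicate's summed cells, and each UMI stands for 1 molecule, so genes were compared without division by transcript length. P2ry12 was the most abundant receptor in control cells. Its level over the 19 control replicates ran from 2657 to 4461 with a median of 3829. Gpr34 followed with 1091 to 1944 and a median of 1569, and P2ry13 with 668 to 1836 and a median of 1186. The other receptors were lower by a wide margin. P2ry6 ran from 245 to 500.1 with a median of 343, P2rx7 from 156 to 468 with a median of 280.04, and P2rx4 from 33.5 to 200.4 with a median of 160. The Gi-coupled receptors made up the upper group, with no overlap between any of their replicates and any replicate of P2ry6, P2rx7 or P2rx4.

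Neighbours in this order were compared over control replicates by a two-sided permutation test of paired log2 differences, chosen after the levels had been seen, with p-values adjusted over the 5 pairs. P2ry12 exceeded Gpr34 in 19 of 19 replicates, by 2.39-fold (adjusted permutation p = 0.0001). Gpr34 exceeded P2ry13 by 1.30-fold in 16 of 19 replicates (adjusted permutation p = 0.000125). P2ry13 exceeded P2ry6 by 3.47-fold in 19 of 19 (adjusted permutation p = 0.0001). The weakest step was that from P2ry6 to P2rx7, 1.23-fold and in 14 of 19 replicates (adjusted permutation p = 0.0214). The test took replicates as independent, although several share a plate. On plate 13 P2rx7 was the higher in M11 (468 against 374 CPM), M12 (357 against 250) and M15 (406 against 330), but not in M16 (331 against 414). P2rx7 exceeded P2rx4 by 2.05-fold in 18 of 19 (adjusted permutation p = 0.0001).

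Detection followed the levels. A UMI of P2ry12 was found in 1602 of 1617 cells, or 99.1%, of Gpr34 in 94.4%, of P2ry13 in 90.5%, of P2ry6 in 59.0%, of P2rx7 in 48.4% and of P2rx4 in 32.6%. After thinning each cell to 1500 UMIs these shares were 97.2%, 84.8%, 78.9%, 38.0%, 29.6% and 19.5%. No other cell type was sorted for comparison. Genes of neurons, astrocytes, oligodendrocytes, endothelial cells, neutrophils, monocytes and border macrophages were seen in 0.124% to 4.39% of the same thinned cells, below the 19.5% of P2rx4. The P2ry12 count in a thinned cell ran from 0 to 26 with a median of 5, whereas the median cell held no UMI of P2ry6, P2rx7 or P2rx4.

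The spread of control sums exceeded counting error for some receptors. Over 28 control sums, a spread that joins differences between plates with those between replicates, the variance of P2ry12 was 6.10 times that expected from counting, that of P2ry13 4.87 times and that of Gpr34 3.41 times. P2rx7 gave 2.10 times, whereas P2rx4 at 1.10 times and P2ry6 at 0.924 times were near counting error. P2ry12, P2ry13 and Gpr34 were each lowest on plate 7, at 2657, 810 and 1153 CPM, and P2ry12 and P2ry13 were each highest on plate 11. Without 5 control cells of plate 7 that had few microglial marker UMIs or held MHC class II transcripts, plate 7 stood at 3090, 945 and 1345. With such cells left out on every plate, a choice made after seeing the data, P2ry12 was still lowest there, but P2ry13 was lowest on plate 4 and Gpr34 on plate 1. Of 45 such cells in all sums, 32 lay in the HFD sums of plates 4 and 5 and 8 in control sums. Diets were compared within plates. Plate 5 held cells of 3d, 1-week and 4-week HFD and no control sum, so its sums add nothing to these comparisons, although the level of a replicate given below joins its cells on plates 4 and 5.

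**Figure D1:**
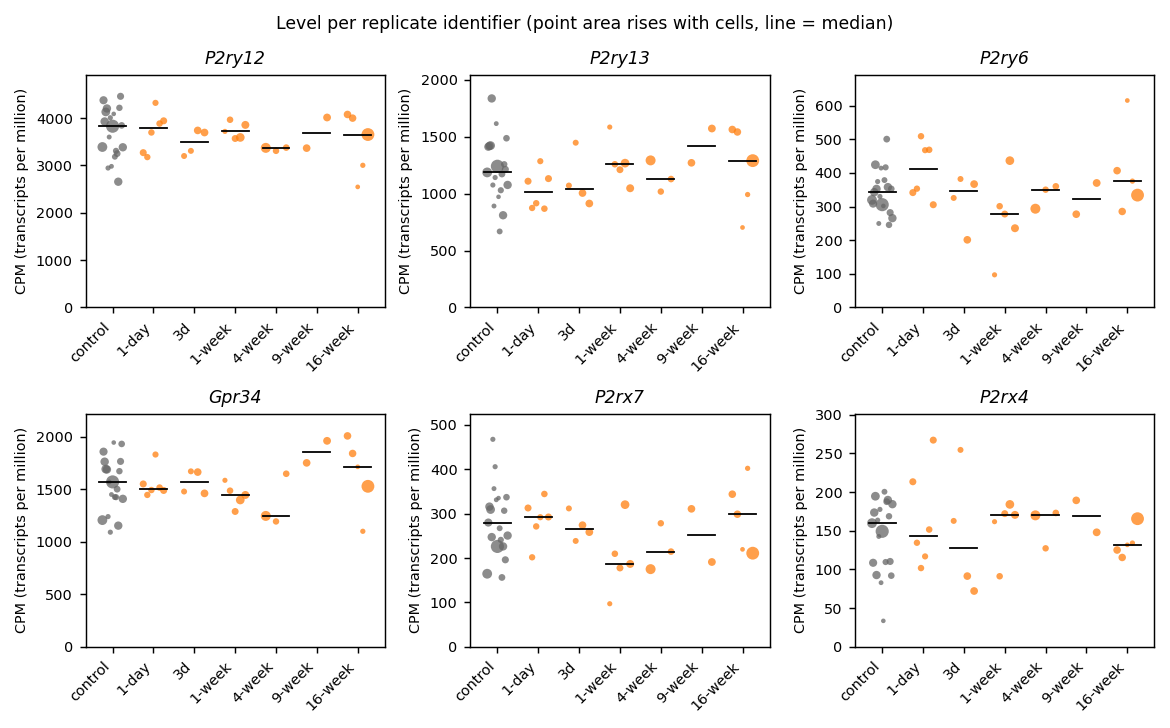
CPM of each receptor (vertical axes, linear from 0) in each replicate identifier by diet (horizontal axis), control in grey and HFD in orange, with point area rising with the number of cells and a line at the median. Summed over their plates, all but 1 of the P2ry12 replicates under HFD lie within the control range, and the highest P2ry6 point, 615 at 16 weeks from 8 cells, lies above all control replicates.

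To ask whether HFD moved the receptors, each length was compared with control across all genes in edgeR's quasi-likelihood test with plate in the model. The lengths share their control sums and are not independent of each other. No receptor passed the test at any length, in 36 comparisons. The smallest adjusted p was 0.787 and the smallest unadjusted p was 0.0586, that of Gpr34 at 4 weeks, and each of the 36 intervals held 0. Few genes of any kind were called, 0% of those tested at 1 day, 3 days, 4 weeks and 16 weeks, 0.121% at 1 week and 0.0661% at 9 weeks, so the count of 0 receptors is no different from this background. The called genes were Gm42418 and H2-Ab1, higher at 1 week, and Jun, lower at 9 weeks. At an unadjusted p under 0.05, 62 genes stood at 4 weeks and 116 at 3 days, the lowest and highest counts, and DESeq2 called no gene at any length.

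At 16 weeks P2ry12 had the smallest SE of all comparisons, with a log2 fold change of -0.10 (SE 0.078, adjusted p = 0.884 by edgeR's test). On plates with both diets this fit took 10 HFD sums from 5 replicates and 18 control sums from 9. It counted sums of 1 identifier on several plates as separate, so its SEs and intervals may be too narrow for every receptor. The 95% interval of the P2ry12 fold was 0.838 to 1.04. With 1 plate or replicate left out the value ran from -0.17 to -0.017, the last without plate 10. The 5 replicates stood at 4077, 4000, 3653, 3003 and 2547 CPM. The lowest of these, from 8 cells on plate 13, lay under the control range and the others within it. Of the 6 plates with both diets, P2ry12 was higher under HFD on 3. These plates are not independent. Plates 10, 11 and 12 hold the same HFD identifiers M5 and M6 and control identifiers M1 to M4, and plates 2 and 3 both hold L4 and L3. On plate 10 the HFD sums were 2376 and 2981, and the 4 control sums began at 3617. In sums of the same identifiers on plates 11 and 12, the HFD means of 4555 and 4462 were above the control means of 4286 and 4132.

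At 3d HFD the 4 replicates held 3200, 3308, 3696 and 3740.4 CPM of P2ry12, within the control range when plates 4 and 5 were joined. On plate 5 alone the sums were 4876 and 4761. The log2 fold change was -0.21 (SE 0.137, adjusted p = 0.806 by edgeR's test), with an interval of the fold from 0.714 to 1.04. On plate 4 both HFD sums, at 2952 and 3085, lay under the single control sum of 4090, which holds 7 cells. Without that sum, which also leaves the HFD sums of plate 4 with no control, the log2 fold change was -0.11. Without cells holding MHC class II transcripts or few microglial marker UMIs, 7 of 22 and 2 of 25 in the HFD sums of plate 4, those sums stood at 3544 and 3327 and the control sum at 4360. On plate 13 the HFD sums of 3200 and 3308 lay between the control sums of 2946 and 4008.

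The other lengths gave P2ry12 fold intervals of 0.853 to 1.14 at 1 day, 0.866 to 1.26 at 1 week, 0.621 to 1.04 at 4 weeks and 0.803 to 1.06 at 9 weeks. The 9-week fit took 6 HFD sums from 2 replicates and 12 control sums from 4 on the same plates, also counted as separate. The 4-week value, a log2 fold change of -0.32 (SE 0.185), became -0.02 without the control sum of plate 4, when only plate 1 held both diets, with 1 sum of 3372 under HFD and 1 of 3390 in control. P2ry12 replicates on 1-week HFD spanned 3570 to 3966 and those on 4-week HFD 3309 to 3377 with their plates joined. On plate 4 the 4-week sums were 2471 and 2752 beside the control sum of 4090, and the 2471 lay under every control replicate. That sum held 3 cells with at least 5 UMIs of MHC class II genes or few microglial marker UMIs, 1 of them with 19711 UMIs, and without these it stood at 3446. The other 4-week sum of plate 4 moved the opposite way without 3 such cells, to 2641, under every control replicate, and the control sum moved to 4360 without 1. The log2 fold change without cells holding MHC class II transcripts was -0.24. On plate 5, with no control sum, they were 4936 and 3933.

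P2ry13 had its widest departure at 1 week, with a log2 fold change of 0.30 (SE 0.166, adjusted p = 0.955 by edgeR's test). The 5 replicates held 1047, 1210, 1258, 1268 and 1585 CPM, all within the control range. P2ry13 was higher than control on 3 of the 4 plates with both diets. At 16 weeks its fold interval was 0.846 to 1.11.

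Gpr34, whose ligand derives from phosphatidylserine, departed most at 4 weeks, with a log2 fold change of -0.41 (SE 0.211, adjusted p = 0.999 by edgeR's test). Its 3 replicates held 1193, 1246 and 1647 CPM with their plates joined. On plate 4 the HFD sums were 928 and 1104 beside the control sum of 1944 from 7 cells, and the 928 lay under every control replicate. Without the 3 cells named for P2ry12 that sum stood at 1322, the other HFD sum at 1320 without its own 3 such cells, and the control sum at 2139 without 1, and without all cells holding MHC class II transcripts the log2 fold change was -0.27. On plate 5, with no control sum, they were 1708 and 2130. Without the control sum of plate 4, which leaves 1 sum of each diet on plate 1, the value was 0.03, and without the whole of plate 4 it was 0.051. Without that control sum Gpr34 turned from -0.10 to 0.20 at 3 days and from -0.11 to 0.13 at 1 week. The control sum and the HFD sums of plate 4 cannot be told apart in these values. At 16 weeks the fold interval of Gpr34 was 0.950 to 1.20.

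P2ry6 values ran from a log2 fold change of -0.24 at 1 week to 0.15 at 1 day, and all were within 1.1 SE of 0. The 1-week value ran from -0.49 to -0.014 with 1 plate or replicate left out, the lowest without plate 7 and the highest without replicate M13. The lowest replicate on 1-week HFD held 97.0 CPM and came from 12 cells, and the highest held 436.

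The channels were the least precisely measured. P2rx7 had log2 fold changes of -0.50 at 3 days (SE 0.291) and -0.47 at 1 week (SE 0.269), with adjusted p of 0.787 and 0.955 by edgeR's test. With 1 plate or replicate left out these ran from -0.60 to -0.27 and from -0.92 to -0.19, the last without replicate M13, which held 3 transcripts of P2rx7 in 12 cells. With no plate term the 3-day value was 0.039. Of the 2 plates with both control and 3d HFD, plate 4 had a single control sum, of 7 cells. The mean P2rx7 level under 3d HFD was 271 against 335 there, and 275 against 390.3 over 4 control sums on plate 13. At 16 weeks the fold interval of P2rx7 was 0.836 to 1.27. P2rx4 had the highest value of all, 0.57 at 3 days (SE 0.440, adjusted p = 0.856 by edgeR's test), where the control sum on plate 4 held 1 transcript of P2rx4, or 33.5 CPM. Without that sum it was 0.41, with 1 plate or replicate left out it ran from 0.39 to 1.69, and in 1 model of all lengths it was -0.084. The interval of its fold, 0.807 to 2.73, was the widest upward of all.

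**Figure D2:**
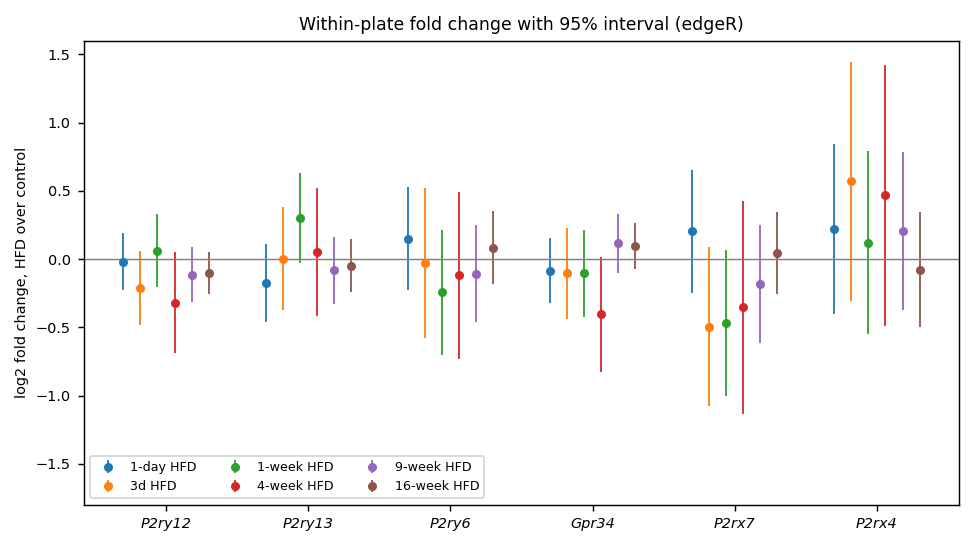
Log2 fold change of each receptor, HFD over control within plates (vertical axis), for 6 lengths of HFD (colours), with points from edgeR's fit and bars for 95% intervals. Every bar crosses 0, and bars are shortest for P2ry12 at 16 weeks and longest for P2rx4.

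A single model of all lengths, added after these results, tested whether any length differed from control and whether lengths differed from each other. None of the 2336 genes was called in either test, although 133 and 132 had an unadjusted p under 0.05. The lowest receptor p was that of P2ry13, 0.140 for any length and 0.0911 for a difference between lengths, with adjusted p of 0.957 and 0.949 by edgeR's test.

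Detection in cells thinned to 1500 UMIs was tested in the same way by limma on arcsine-transformed shares. No receptor was called at any length, and called genes made up 0.0198% of those tested at 1 week, 0.0394% at 4 weeks and 0% elsewhere. The called genes were C1qa, higher at 1 week, and Ddx3x and Gm42418, lower at 4 weeks. The share of P2ry12 cells ran from 95.9% at 3 days (exact 95% interval 90.6% to 98.6%) to 98.8% at 1 day (95.6% to 99.8%), against 96.8% in control (95.3% to 98.0%). The share of P2ry13 was 70.8% at 1 day (63.1% to 77.7%) and 83.6% at 4 weeks (76.0% to 89.5%), against 81.2% in control (78.1% to 84.0%). P2rx4 was seen in 10.7% of cells at 3 days (5.85% to 17.7%) against 21.2% in control (18.3% to 24.4%), although its fitted level there was the highest of all. On plate 5, with no control sum, none of the 18 and 16 thinned 3d cells held P2rx4, and within plates the arcsine difference was -0.0056 (adjusted p = 0.994 by limma). These intervals cover counting error only. Among all genes tested, 253 of 5034 had an unadjusted p under 0.05 at 1 day, 201 of 5055 at 1 week and 169 of 5081 at 4 weeks. Of 36 receptor comparisons, 3 did, namely P2ry13 at 1 day (lower, p = 0.0112 by limma) and 4 weeks (higher, p = 0.0166 by limma) and P2ry12 at 1 week (higher, p = 0.0295 by limma), with adjusted p of 0.919, 1 and 0.999. Both higher values turned under an alternative, P2ry13 at 4 weeks to -0.012 with no thinning and P2ry12 at 1 week to -0.053 with no plate term. On plate 7 P2ry12 was seen in 80.0% of 50 thinned control cells and 98.2% of 55 cells on 1-week HFD, and that control sum holds the 4 cells with 1 or 2 microglial marker UMIs described below, whose part in this value was not tested.

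Other genes of the same pathways were examined from 9 lists. No gene of the lists for nucleotide supply and breakdown, other purinergic receptors, signalling below the receptors, inflammasome output, lysophosphatidylserine metabolism, overlapping or neighbouring genes, homeostatic microglia or disease-associated microglia passed the test at any length. Among immediate early genes, Jun fell at 9 weeks, in 6 sums that come from 2 replicates, against 12 control sums from 4 on the same plates. No gene was called at 9 weeks by DESeq2, by voom with the replicate identifier as a correlated block, or without plate 10, HFD replicate M8 or control replicate M2. Of the nucleotide list, 3 to 4 of 14 genes were tested, among them Entpd1, the ectonucleotidase that clears extracellular ATP and ADP, at 438 CPM in pooled control cells. Of the 16 genes listed as other purinergic receptors, 3 were tested, of which the adenosine receptor gene Adora3 stood at 205. The other two are not purinergic receptors by their known ligands, Gpr183 being a receptor for oxysterols, at 216, and Gpr84 for medium-chain fatty acids, at 156. Of the 26 signalling genes, 15 to 19 were tested, among them Rgs2 at 1234, Gnai2 at 1041 and Rgs10 at 654. Their median log2 fold change ran from -0.10 at 1 week to 0.22 at 3 days, beside a median of all genes of -0.0030 and -0.0029. For Gpr34, the lysophosphatidylserine lipase gene Abhd12 stood at 638. The 15 homeostatic genes were all tested, with medians from -0.11 at 4 weeks to 0.15 at 3 days. Medians of the other lists, each with at most 4 genes tested, ran wider. They were -0.43 to -0.010 for nucleotide supply and breakdown, -0.26 to 0.49 for other purinergic receptors and -0.36 to 0.29 for inflammasome output. Lysophosphatidylserine metabolism gave -0.30 to 0.26, overlapping or neighbouring genes -0.42 to 0.23, disease-associated microglia -0.45 to 0.39 and immediate early genes -1.16 to 0.45.

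Between cells, P2ry12 varied together with Gpr34 and with P2ry13. Over 1617 cells, with thinned counts on a log2 scale and each plate centred, Pearson's r was 0.23 for P2ry12 with Gpr34 and 0.18 for P2ry12 with P2ry13, while the median r of P2ry12 with all other genes was 0.0034. These are correlations across cells that share libraries, given as a description. P2ry12 was the gene most like P2ry13 and the gene most like Gpr34 among 5103 genes. P2ry13 with Gpr34 had an r of 0.061, and the 12 other pairs lay between -0.063 and 0.037.

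**Figure D3:**
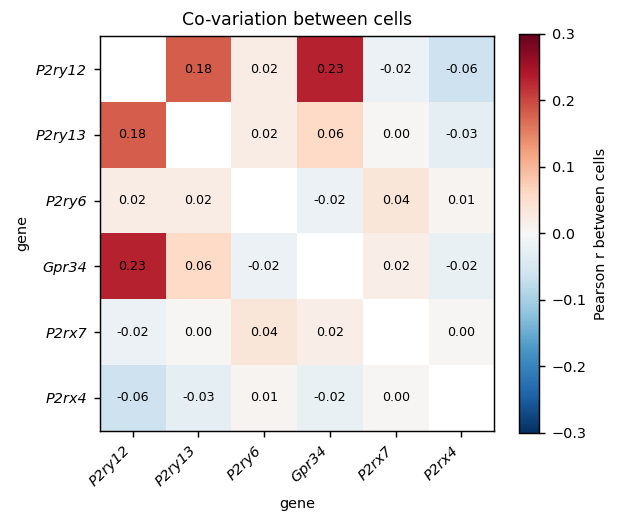
Pearson correlation between 1617 cells for each pair of receptors (colour and printed value, with genes on both axes), from log2 counts of thinned cells centred per plate. P2ry12 with Gpr34 and with P2ry13 stand out, at 0.23 and 0.18.

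Both correlations were above 0 on 13 of 13 plates. For P2ry12 with Gpr34 they ran from 0.040 to 0.505 with a median of 0.241, and for P2ry12 with P2ry13 from 0.066 to 0.320 with a median of 0.178. P2ry13 with Gpr34 was above 0 on 9 plates. Counting noise lowers r for genes of few UMIs. A measure of the shared part, the covariance beyond counting, gave a corrected correlation of 0.528 for P2ry12 with Gpr34, 0.469 for P2ry12 with P2ry13 and 0.220 for P2ry13 with Gpr34. The last was no larger in size than that of P2ry12 with P2rx4 (-0.262), P2ry6 with P2rx7 (0.247) or P2ry13 with P2rx4 (-0.225), and P2ry13 with P2ry6 gave 0.201.

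By diet, P2ry12 with Gpr34 gave 0.211 in control cells and 0.105 to 0.409 under the HFD lengths, highest at 3 days and lowest at 16 weeks. P2ry12 with P2ry13 gave 0.143 in control cells and 0.097 to 0.314 under HFD. Differences between diets in these correlations were not tested.

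**Figure D4:**
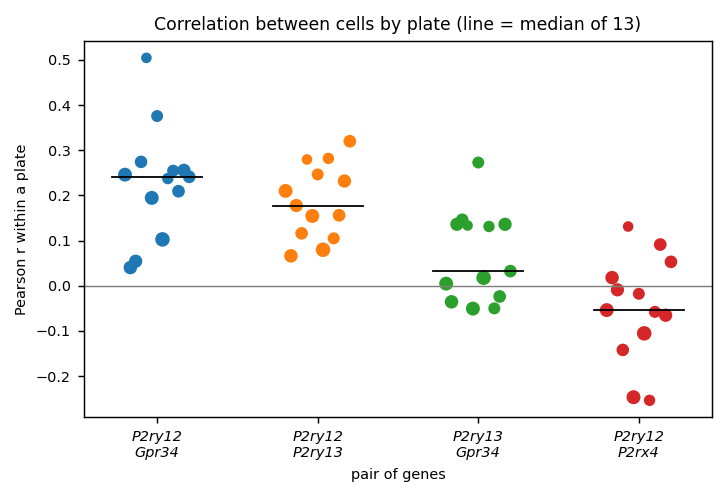
Pearson r between cells within each of 13 plates (points, area by number of cells; line at the median) for 4 pairs of receptors (horizontal axis). P2ry12 with Gpr34 and with P2ry13 lie above 0 on every plate, while P2ry13 with Gpr34 and P2ry12 with P2rx4 lie on both sides of 0.

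Among the genes most like P2ry12 between cells were Cst3, encoding cystatin C (r = 0.299), and Sparc (0.283). For Gpr34 they included P2ry12 and Cx3cr1 (0.162), and for P2ry13 they included P2ry12 and Selplg (0.138). For P2ry6, P2rx7 and P2rx4 the highest r with any gene was 0.096, 0.089 and 0.094, too weak in counts this sparse to name a partner. Apoe, the apolipoprotein gene of activated microglia and of border macrophages, had the lowest r with P2ry12, at -0.264, and with P2ry13 (-0.120) and Gpr34 (-0.096). For P2ry12 with Apoe, r was below 0 on 12 of 13 plates. It was -0.213 after 50 cells low in microglial markers or holding MHC class II or border macrophage transcripts were left out. Apoe was seen in 22.5% of thinned cells, and 61.5% of its UMIs lay in 41 cells.

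Across 22 control sums of 14 replicates, after removal of the plate mean, the most similar of 1232 genes were Chd7 for P2ry12 (r = 0.796), Camk2d for P2ry13 (0.676), Il4ra for P2ry6 (0.709), Map2k2 for Gpr34 (0.748), Tnfrsf1b for P2rx7 (0.701) and Junb for P2rx4 (0.794). Sums of one identifier on several plates are not independent, and these values are descriptions. P2ry12 with Gpr34 gave 0.011 and with P2ry13 -0.299 over these sums, unlike the values between cells.

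The receptors of higher level varied least between cells. The variance beyond counting, relative to the squared mean, was 0.177 for P2ry12, 0.166 for P2ry13 and 0.187 for Gpr34, against 0.295 for P2ry6, 0.326 for P2rx7 and 0.563 for P2rx4, and 0.664 for the median of 5104 genes. Of the other genes, 10.7% had a lower value than P2ry12, 9.92% than P2ry13 and 11.5% than Gpr34. Genes of like level were not set apart, so these shares do not show that the receptors vary less than genes as abundant.

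In 15 cells, 0.928% of all, no UMI of P2ry12 was found, and these cells were examined after the data had been seen. Of these 5 were control cells of plate 7, and 4 of that plate held 1 or 2 UMIs of the 8 microglial markers among 2615 to 7655 UMIs, with no UMI of Gpr34 or P2ry13. The median of cells with P2ry12 was 30.0 marker UMIs per 1000. Of the 15 cells, 5 held at least 5 UMIs of MHC class II genes, 1 of them on plate 7, against 2.54% of all cells. Cells with that much MHC class II held a mean of 3.29 UMIs of P2ry12 per 1500, against 5.56 in the other cells. The part of these cells in the correlations was not tested further, and r for P2ry12 with Gpr34 was 0.212 without the 50 cells and 0.217 without plate 7.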

How the data were processed

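Per the labels and the study's methods, the authors sorted single cells for CEL-Seq2, trimmed barcodes with Cutadapt, mapped reads with STAR to GRCm38/mm10, counted them with featureCounts in snakePipes and analysed them with RaceID3. The deposited plate tables hold estimated counts, UMIs corrected for chance repeats, without normalization. Genes were those of the filtered table, whose 843 columns of values were not used. Diets came from the table of wells. Wells of 7 days were joined with 1 week, a choice made on seeing the wells.

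Members and lists were chosen with earlier results of these data known. Estimated counts were summed over at least 5 cells per replicate and plate, 22768 to 219146 transcripts per sum, rounded, and fitted by edgeR 4.0.16 in R 4.3.3 (TMM, filterByExpr, Benjamini-Hochberg threshold 0.05) with plate as a term. The filter was given the groups; a run with the design matrix came before it and is an added alternative. Cells were thinned in 1 draw, genes seen in at least 5% of cells were tested by limma 3.58.1, and DESeq2 1.42.0 was the other tool. Methods were also run on simulated data, with outcomes not given here. All 6 receptors were named, list genes by control level or by the test, and like genes by r. Other genes were named after their values were seen. Alternatives were another normalization, filter, cell minimum, model and left-out plates and replicates. One gene that the rule for like genes names is not reported here.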

Additional observations from a re-analysis of the deposited data

Results flagged for a closer look

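Among 24 groups of 4 to 6 replicates examined for a replicate far from the others, 2 stood out, where chance gives about 1 in 20. Gpr34 in the 1-day HFD replicate M12 of plate 8 held 1830 CPM, against 1550 in the nearest other replicate, from 22 cells. P2rx4 in the 1-week HFD replicate M22 of plates 4 and 5 held 91.2 CPM, against 162 in the nearest other, from 26 cells. The rule and its chance rate take no account of plate. Control sums of Gpr34 on plate 8 ran from 1672 to 1931 CPM. The 3d HFD replicates M24 and M25 of plates 4 and 5 held 91.4 and 72.1 CPM of P2rx4.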

How the results depend on the processing

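No receptor was called under any alternative. Of 882 level values 85 had the other sign, and of 108 detection values 35 did, and no direction is claimed for these effects. 105 of 105 correlations moved by less than 1 SD of the plate values. That SD, 0.046 to 0.155, exceeds the size of r for every pair but P2ry12 with Gpr34 and with P2ry13, so other pairs could hardly fail. Some of them changed sign, such as P2ry12 with P2rx7, from -0.018 to 0.034 with no thinning. Under the alternatives P2ry12 with Gpr34 ran from 0.197 to 0.306 and P2ry12 with P2ry13 from 0.143 to 0.251. With no plate term, genes called were 2 at 1-day, 14 at 3d, 6 at 1-week, 8 at 4-week and 0 at 9-week, and genes called in detection were 1 at 1-day, 4 at 3d, 2 at 1-week and 1 at 4-week, and log2 fold changes were 0.013 for P2ry12 at 3d, -0.23 for P2ry13 at 3d, 0.079 for Gpr34 at 3d, 0.039 for P2rx7 at 3d, -0.27 for P2rx4 at 3d, -0.13 for P2ry13 at 4-week, 0.059 for P2ry6 at 4-week, 0.11 for P2ry13 at 9-week and 0.039 for P2ry13 at 16-week, and arcsine differences in detection were -0.053 for P2ry12 at 1-week. For wells with at least 1000 transcripts, genes called were 1 at 1-week and 2 at 4-week, and log2 fold changes were 0.018 for P2ry12 at 1-day and -0.013 for P2ry13 at 3d. For wells with at least 2500 transcripts, genes called were 0 at 1-week and 0 at 9-week, and log2 fold changes were 0.049 for P2ry12 at 1-day, -0.030 for P2ry13 at 4-week and 0.0055 for P2ry13 at 16-week. With no filter on low counts, genes called were 6 at 3d, 7 at 1-week, 9 at 4-week, 3 at 9-week and 4 at 16-week, and log2 fold changes were 0.077 for P2ry12 at 3d, 0.24 for P2ry6 at 3d, 0.19 for Gpr34 at 3d and 0.023 for Gpr34 at 1-week. With sums over linked plates, genes called were 4 at 3d, 5 at 1-week and 6 at 4-week, and log2 fold changes were 0.015 for Gpr34 at 3d and 0.0034 for P2ry6 at 4-week. With the DESeq2 test, genes called were 0 at 1-week and 0 at 9-week, and log2 fold changes were -0.00038 for P2ry13 at 3d. With RLE size factors, log2 fold changes were -0.00096 for P2ry13 at 3d. With filter given the design matrix, genes called were 6 at 1-week, 4 at 4-week and 2 at 16-week, and log2 fold changes were 0.033 for P2ry6 at 3d. With at least 10 cells in a sum, genes called were 4 at 1-week and 1 at 4-week, and log2 fold changes were 0.028 for P2ry6 at 3d, 0.21 for Gpr34 at 3d, 0.15 for Gpr34 at 1-week, -0.13 for P2rx4 at 1-week, 0.054 for Gpr34 at 4-week, 0.095 for P2rx7 at 4-week and 0.024 for P2ry13 at 16-week. With 1 model of all lengths, genes called were 0 at 1-week and 0 at 9-week, and log2 fold changes were 0.041 for Gpr34 at 3d, -0.084 for P2rx4 at 3d and 0.034 for P2ry6 at 4-week. With voom with duplicateCorrelation, genes called were 0 at 1-week, 1 at 4-week, 0 at 9-week and 1 at 16-week, and log2 fold changes were -0.018 for P2rx4 at 1-week and 0.074 for P2rx4 at 16-week. Without cells with MHC class II transcripts, genes called were 1 at 1-week. With cells thinned to 1000 UMIs, genes called in detection were 0 at 1-week and 1 at 4-week. With no thinning, genes called in detection were 1 at 4-week, and arcsine differences in detection were -0.012 for P2ry13 at 4-week. With each plate or replicate identifier left out, values ran from -0.072 to 0.055 for P2ry12, 1-day, -0.14 to 0.45 for P2ry6, 1-day, -0.19 to 0.041 for Gpr34, 1-day, -0.14 to 0.56 for P2rx4, 1-day, 0 to 1 for genes called, 3d, -0.12 to 0.10 for P2ry13, 3d, -0.11 to 0.024 for P2ry6, 3d, -0.71 to 0.20 for Gpr34, 3d, 0 to 5 for genes called, 1-week, -0.015 to 0.19 for P2ry12, 1-week, -0.22 to 0.14 for Gpr34, 1-week, -0.11 to 0.29 for P2rx4, 1-week, 0 to 3 for genes called, 4-week, -0.064 to 0.13 for P2ry13, 4-week, -0.91 to 0.051 for Gpr34, 4-week, -1.10 to 0.092 for P2rx7, 4-week, 0 to 3 for genes called, 9-week, -0.23 to 0.039 for P2ry13, 9-week, -0.30 to 0.034 for P2ry6, 9-week, -0.0064 to 0.21 for Gpr34, 9-week, -0.59 to 0.17 for P2rx7, 9-week, -0.34 to 0.46 for P2rx4, 9-week, 0 to 4 for genes called, 16-week, -0.14 to 0.019 for P2ry13, 16-week and -0.055 to 0.10 for P2rx7, 16-week. Without the control sum of 7 cells on plate 4, the only control there, Gpr34 changed sign at 3 days, 1 week and 4 weeks (0.20, 0.13 and 0.03), and the causes of these and the other changes were not tested. Without a filter at 3 days the median of all genes moved from -0.0029 to 0.17, so the receptors' values there are relative to that shift. P2rx4 at 16 weeks passed the filter in 13 of 20 left-out fits.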
